A study of Mus musculus with 21 samples.

Results

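Sperm and egg meet through a small set of proteins, and 10 mouse genes that encode or process them were followed here from sperm and oocyte to blastocyst. The genes are Izumo1, Izumo1r, Cd9, Spaca1, Spaca6, Zpbp, Acr, Acrbp, Plcz1 and Astl. Of these 10 genes, 8 had a transcript in the merged long-read annotation, with 13 transcripts in all, among 11455 annotated genes that had one and 22612 merged transcripts. Izumo1 and Spaca6 had none, so no level was measured for either, and nothing follows from this about their expression. A transcript was counted for a gene when they shared exon bases and strand, and the value of a gene is the summed TPM of its transcripts. TPM is a level scaled by transcript length and to the same total in every library.

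The series holds 14 short-read libraries, 2 per stage, and 7 long-read pools, 1 per stage. The stages were sperm, oocyte and the embryo at 1-cell, 2-cell, 4-cell, 8-cell and blastocyst. Sperm came from the epididymis of males that the titles call DBA/2J and the protocol DBA/2N. Oocytes came from C57/BL6J females of 3 to 5 weeks that had been superovulated, and embryos from such females mated with those males. Oocytes were collected at 20 h after hCG, while embryos were cultured in KSOM medium until 24 to 26 h (1-cell), 46 to 48 h (2-cell), 54 to 58 h (4-cell), 68 to 70 h (8-cell) or 94 to 96 h (blastocyst). The labels name no engineered allele in any group. Each library was amplified from the RNA of many cells together, so fewer cells of a type and less RNA per cell cannot be told apart. The p-values measure the spread between the 2 libraries of a stage, pooled over all stages in a fit. In the fits over 14 or 12 libraries this is not the spread of the compared stages alone.

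As background, the sperm carries an acrosome, a secretory vesicle over the nucleus whose content is released near the zona pellucida, the coat of the egg. IZUMO1 on the sperm then binds IZUMO1R (JUNO) on the egg, the tetraspanin CD9 of the egg membrane is needed for fusion, and PLCZ1 brought in by the sperm starts the calcium oscillations of egg activation. Ovastacin, the product of Astl, is released by the egg after fusion and cleaves the zona protein ZP2.

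Marker lists set sperm, oocyte and blastocyst apart from the other stages, while that of the 2-cell embryo did not set 2-cell apart. No list was made for 1-cell, 4-cell or 8-cell. The summed TPM of 10 sperm and late spermatid markers was 17812 and 21401 in the sperm libraries and at most 64.9 in any other, and that of 8 oocyte markers was 17598 and 28970 in oocyte and 15.6 and 16.8 in sperm. At 2-cell the oocyte markers summed to 132 in replicate 1 and 1367 in replicate 2. The 7 blastocyst markers summed to 10361 and 37536 in blastocyst and at most 898 elsewhere, and the 7 markers of the 2-cell embryo were lower at 2-cell (66.2 and 430) than at 4-cell (616 and 581). Only 2 of 10 cumulus and granulosa markers had a merged transcript, and they stayed at or below 6.87 up to 1-cell and reached 178 at 4-cell. The sperm libraries also held 8 leukocyte markers at a summed 10804 and 2237 TPM and 6 of 9 epididymal epithelium markers at 2384 and 428, both higher in replicate 1. These markers summed to at most 114 and 3.21 in the other stages. All 8 leukocyte markers had a merged transcript, 7 of them at 1 TPM or more in both sperm libraries, and Lcn5, Rnase10 and Spint4 of the epididymal list had none. Replicates agreed least at 2-cell (r = 0.721 across transcripts of log2(TPM + 1)) and in sperm (r = 0.773) and most at 4-cell (r = 0.964). Read counts cannot be had from TPM, so the count behind each value is unknown. The authors list the total reads of each library, which were not used here. At 1-cell and 2-cell these totals were larger for replicate 2 than for replicate 1.

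The acrosomal members and Plcz1 were sperm transcripts. Spaca1, an acrosomal membrane protein needed to shape the sperm head, stood at 37.3 and 372 TPM in the 2 sperm libraries and at most 0.815 TPM in the 12 others. Acr, the acrosomal protease acrosin, stood at 228 and 76.6 TPM in sperm and at most 0.137 elsewhere, with 9 of 12 libraries listed at 0. Zpbp, a protein of the acrosome that binds the zona, stood at 21.6 and 58.4 TPM in sperm and at most 0.964 elsewhere. The sperm libraries were above every other library for each of these genes, while the replicates of sperm differed 9.98-fold for Spaca1, 2.98-fold for Acr and 2.70-fold for Zpbp. They did so in opposite directions, since Acr was higher in replicate 1 and Spaca1 and Zpbp in replicate 2. The protamines, which pack sperm DNA, split in the same way, with Prm2 10.4-fold higher in replicate 1 and Prm1 3.34-fold higher in replicate 2.

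Plcz1 (chr6:139989673-140041457, minus strand) stood at 12.5 TPM in sperm replicate 1 and 1.84 TPM in replicate 2. It was listed at 0 in all 12 oocyte and embryo libraries, including 1-cell, which was collected after fertilization. No fold is given against a stage listed at 0. Acrbp, a binding protein of proacrosin, stood at 60.8 and 14.5 TPM in sperm and was listed at 0 in both oocyte libraries. It was at 0.236 and 0.0477 TPM at 1-cell, 0.306 and 8.76 at 2-cell, 2.97 and 2.38 at 4-cell, 0.858 and 1.70 at 8-cell and 2.86 and 2.01 at blastocyst. Sperm did not overlap with any other stage for Acrbp, and 6 of the 12 other libraries reached 1 TPM. These sums include a transcript that joins the upstream gene Ing4 to Acrbp, described below.

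**Figure D1:**
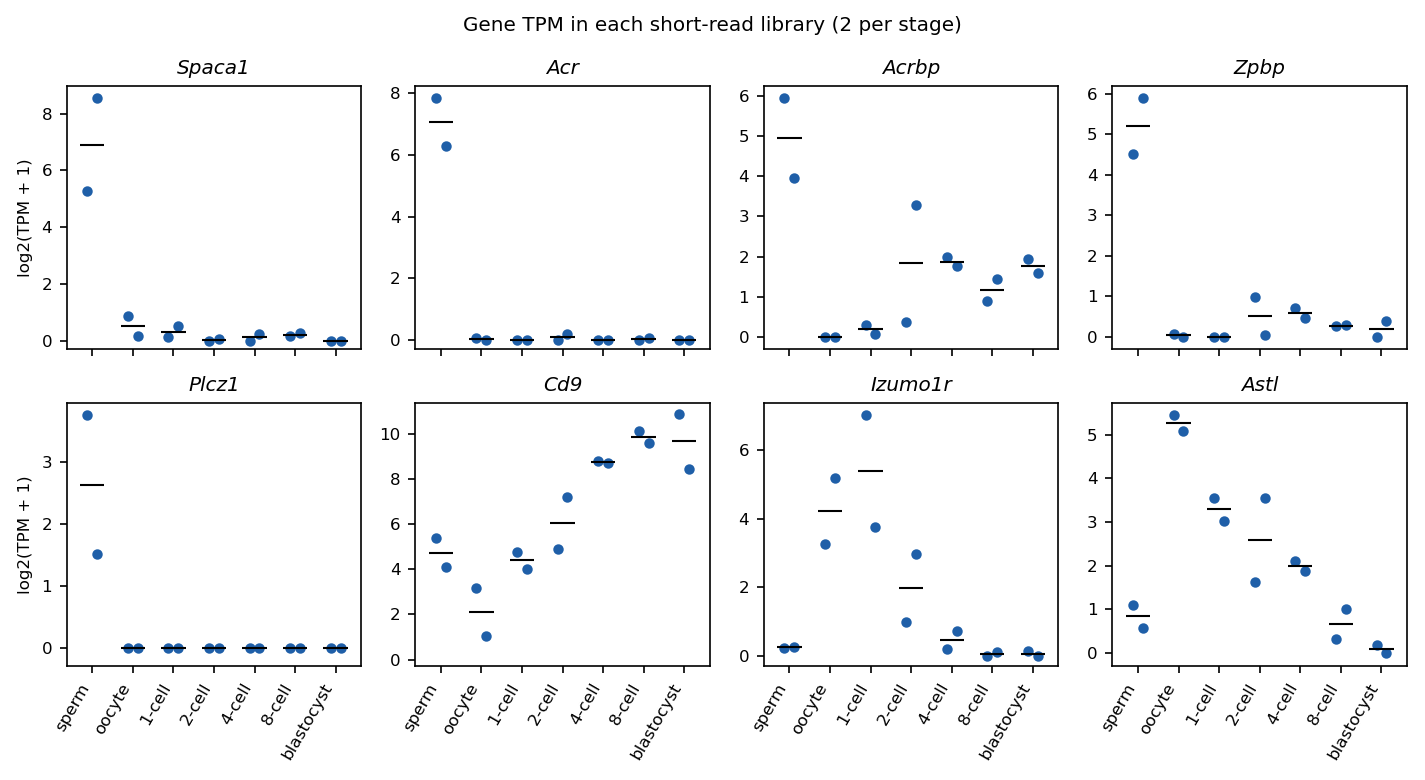
Level of the 8 measured genes, as log2(TPM + 1) on the vertical axis with a range of its own in each panel, by stage; points are the 2 libraries of a stage and bars their mean. Spaca1, Acr, Acrbp, Zpbp and Plcz1 are highest in sperm, Cd9 is highest in 8-cell and blastocyst, Izumo1r peaks in oocyte and 1-cell, and Astl in oocyte.

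The egg members Izumo1r and Astl had the opposite pattern. Izumo1r, the GPI-anchored egg receptor of IZUMO1, stood at 8.57 and 35.2 TPM in oocyte and 129 and 12.6 at 1-cell. It was at 0.983 and 6.81 TPM at 2-cell and no higher than 0.663 TPM from 4-cell on, while sperm held 0.171 and 0.211 TPM. The oocyte and 1-cell libraries overlapped, and every one of them was above every library of the other stages. Astl stood at 42.5 and 32.9 TPM in oocyte, 10.8 and 7.16 at 1-cell, 2.10 and 10.7 at 2-cell, 3.29 and 2.66 at 4-cell, 0.247 and 1.01 at 8-cell and 0.145 and 0 at blastocyst. Sperm held 1.14 and 0.497 TPM of Astl. Oocyte was above all other stages, and the 2-cell libraries overlapped with both neighbouring stages. At 2-cell both Izumo1r and Astl were higher in replicate 2, as were the oocyte markers (132 and 1367 TPM), and the part of this in the 2-cell values was not tested.

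Cd9 was the member measured above 1 TPM in all 14 libraries. It stood at 41.1 and 16.0 TPM in sperm, 7.92 and 1.06 in oocyte, 26.6 and 15.3 at 1-cell, 28.9 and 145 at 2-cell and 444 and 417 at 4-cell. It reached 1126 and 779 TPM at 8-cell and 1858 and 352 at blastocyst. The mean was thus lowest in oocyte, at 4.49 ± 4.85 TPM (SD, n = 2), and highest in blastocyst, at 1105 ± 1065 (SD, n = 2), whose 2 libraries enclosed those of 8-cell and one of which was below both 4-cell libraries. In sperm, Cd9 was 2.58-fold higher in replicate 1. So were the leukocyte and epididymal markers, but also the sperm genes Acr (2.98-fold), Acrbp (4.18-fold), Plcz1 (6.78-fold) and Prm2 (10.4-fold), so the direction does not set Cd9 apart from them. The part of other cells in the sperm value of Cd9 was not tested.

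Sperm was compared with oocyte and with 1-cell on log2(TPM + 1), in a fit over all 14 libraries with limma, for genes with at least 1 TPM in at least 2 libraries. Of the 8 measured members, 4 (Spaca1, Zpbp, Acr and Plcz1) passed this filter through the 2 sperm libraries alone and so had to differ, and their tests add nothing to the levels above. Sperm and oocyte differed at an adjusted p under 0.05 for 53.9% of the 11267 genes tested, and the median gene was higher in sperm by 0.96 on the log2 scale. All 8 measured members were called, 6 higher (36.9% of all genes) and 2 lower (17.1%). The calls over all genes were 4152 higher and 1922 lower, or 3006 and 3021 after quantile normalization.

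Among the members with values outside sperm, Acrbp was higher in sperm than in oocyte by 4.95 ± 0.82 (SE) on the log2(TPM + 1) scale (adjusted p = 0.000119), a value that depends on the pseudocount because oocyte was listed at 0. Astl fell by 4.42 ± 0.69 (adjusted p = 7.22e-05) and Izumo1r fell by 3.97 ± 0.92 (adjusted p = 0.00187) from oocyte to sperm. Cd9 was higher in sperm by 2.64 ± 1.01 (adjusted p = 0.0355). That call for Cd9 ended after quantile normalization (1.70, adjusted p = 0.171), in a fit on the 4 libraries compared (adjusted p = 0.0518), when each stage was weighted by its spread (adjusted p = 0.102), without sperm replicate 1 (1.98, adjusted p = 0.203) and without oocyte replicate 2 (1.58, adjusted p = 0.295).

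Against 1-cell, 7 of the 8 members were called, where 50.5% of all genes were. Of these, 5 were higher (31.7% of all genes) and 2 lower (18.7%). Among the 5, 4 (Spaca1, Zpbp, Acr and Plcz1) passed the filter through sperm alone and had to differ. The counts can therefore not be read against these percentages. The calls over all genes were 3574 higher and 2112 lower, or 2905 and 2951 after quantile normalization. Izumo1r was lower in sperm, with a difference of -5.14 ± 0.92 (adjusted p = 0.000262), and so was Astl, with -2.45 ± 0.69 (adjusted p = 0.0077). Without 1-cell replicate 1 the difference of Astl was -2.19 (adjusted p = 0.0617). Acrbp was higher in sperm by 4.77 ± 0.82 (adjusted p = 0.000186). Cd9 was not called (0.33 ± 1.01, adjusted p = 0.809), with a 95% interval of -1.79 to 2.46. The comparisons with oocyte and with 1-cell share the sperm libraries.

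**Figure D2:**
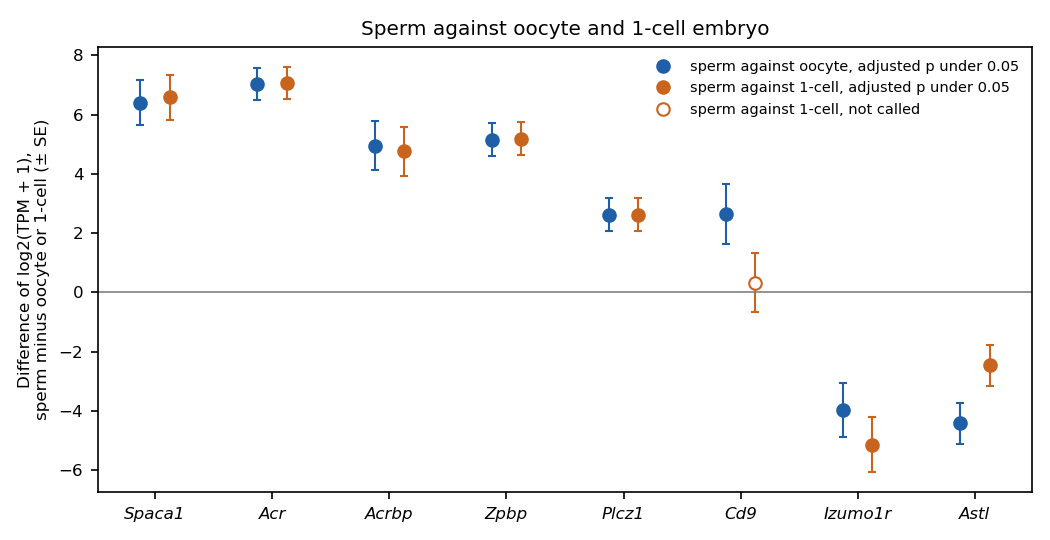
Difference of log2(TPM + 1), sperm minus oocyte (blue) or sperm minus 1-cell (orange), for each measured gene, with SE bars from the fit over 14 libraries and filled points for an adjusted p under 0.05. The 5 acrosomal and activation genes are above 0 in both, Izumo1r and Astl are below 0 in both, and Cd9 is called only against oocyte.

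Between oocyte and blastocyst, the 4 members that passed the filter over the 12 libraries without sperm were tested, and 3 were called, where 53.4% of 10484 genes were: 1 higher in blastocyst (35.7% of all genes) and 2 lower (17.7%). Cd9 rose by 7.56 ± 0.99 (SE, adjusted p = 3.89e-05), against a median of 0.83 over all genes. Astl fell by 5.17 ± 0.68 (adjusted p = 4.2e-05) and Izumo1r fell by 4.15 ± 0.97 (adjusted p = 0.00257). For Acrbp the difference was 1.77 ± 0.72 (adjusted p = 0.0504), and under 8 of the alternatives it was called, with an adjusted p from 0.000816 to 0.185 over all of them. In the called genes of this comparison, 66.8% were higher in blastocyst, against 50.3% after quantile normalization, and the 3 members were called with the same sign under both.

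Izumo1r fell by 3.42 ± 0.97 on the log2 scale from 1-cell to 2-cell (adjusted p = 0.0155), while the median of all genes was 0.73. It was the 1 member called, where 32.2% of all genes were, 26.1% higher and 6.06% lower. The calls over all genes were 2736 higher and 635 lower, or 1659 and 1839 after quantile normalization. The call was lost without 1-cell replicate 1 (-1.79, adjusted p = 0.197), without 2-cell replicate 1 (-2.43, adjusted p = 0.0786) and when each stage was weighted by its spread (adjusted p = 0.0828). Astl was not called here (-0.70 ± 0.68, adjusted p = 0.461), and was called after quantile normalization (-1.99, adjusted p = 0.00915). Acrbp was not called either (1.65, adjusted p = 0.0939), but was without 2-cell replicate 1 (3.10, adjusted p = 0.000179), so that its value rested on 2-cell replicate 2. The difference of Acrbp was 0.97 (adjusted p = 0.247) with each transcript counted for 1 gene, an alternative chosen after seeing the data, and 0.57 (adjusted p = 0.347) after quantile normalization.

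No member was called in any other single step of the fit over 12 libraries. From oocyte to 1-cell, limma called 0 of 4 members, where it called 0.267% of all genes (24 higher and 4 lower, or 12 and 5 after quantile normalization), and 2 had an unadjusted p under 0.05. These were Cd9, with a difference of 2.31 ± 0.99 (adjusted p = 0.469), and Astl, with -1.97 ± 0.68 (adjusted p = 0.308). From 2-cell to 4-cell, limma called 0 of 4 (3.10% of all genes), with an unadjusted p under 0.05 for 1, Cd9 (2.71 ± 0.99, adjusted p = 0.121). With 1 library left out in turn, this difference ranged from 1.56 to 3.85, the highest without 2-cell replicate 2. From 4-cell to 8-cell, limma called 0 of 4 (1.62% of all genes, 78 higher and 92 lower, or 186 and 80 after quantile normalization) and 0 had an unadjusted p under 0.05. Over the 4 libraries of these 2 stages alone, whose replicates agreed closely, Cd9 was higher at 8-cell by 1.12 (adjusted p = 0.0286) and Astl was lower, with -1.32 (adjusted p = 0.021), in a fit that called 37.2% of 9624 genes. From 8-cell to blastocyst, limma called 0 of 4 (2.98% of all genes) and 0 had an unadjusted p under 0.05, and the difference of Cd9 was -0.21 (95% interval -2.33 to 1.91).

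**Figure D3:**
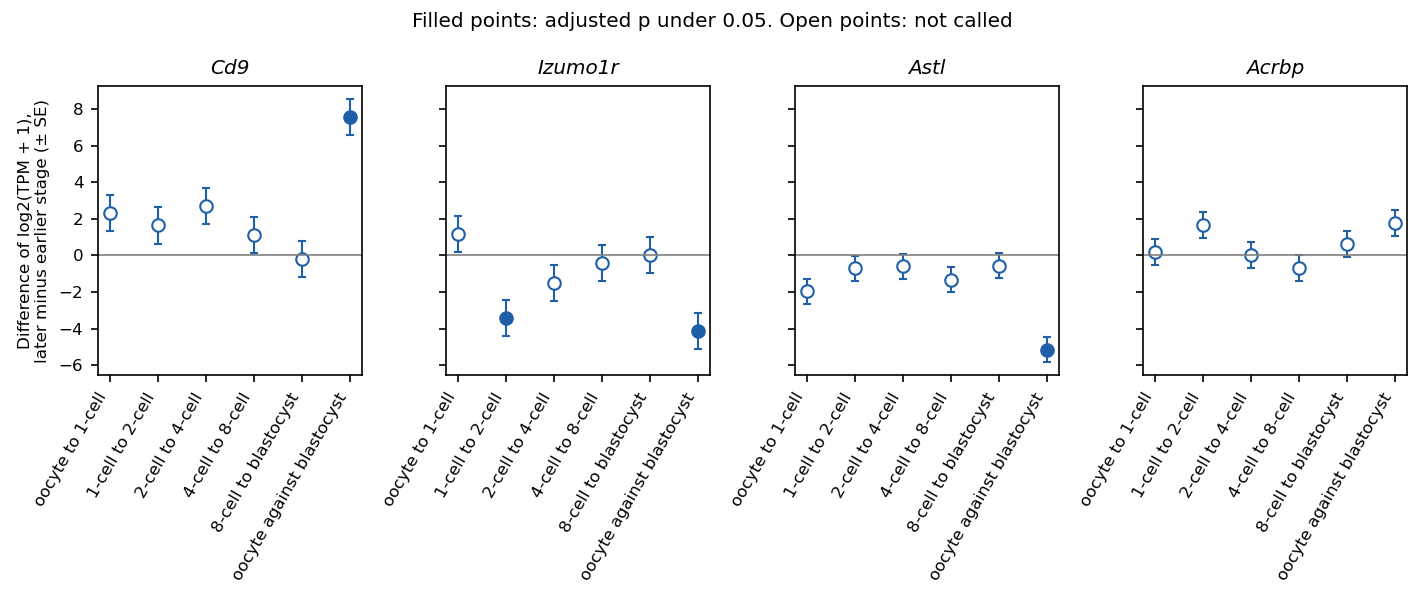
Difference of log2(TPM + 1), later minus earlier stage, with SE bars from the fit over 12 libraries, for each step and for oocyte against blastocyst in the 4 genes tested. Filled points mark an adjusted p under 0.05: Izumo1r from 1-cell to 2-cell, and Cd9, Izumo1r and Astl between oocyte and blastocyst.

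The long reads gave the exon structure of these transcripts. The sperm pool held transcripts of 6 members (Cd9, Spaca1, Zpbp, Acr, Acrbp and Plcz1), the oocyte pool of Astl, the 1-cell pool of Izumo1r, the 2-cell pool of Cd9 and Acrbp, and the 4-cell, 8-cell and blastocyst pools of Cd9. One pool per stage allows no test, and a gene without a long-read transcript in a pool may still be measured there by short reads, as Izumo1r was in oocyte.

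In sperm, the form of Acr and Acrbp with the most TPM, and the one measured form of Plcz1, was not the form with the longest reading frame, whereas for Spaca1 it was. Acr (chr15:89568326-89574585, plus strand) had 2 forms with 5 exons each. The short form lacked 130 coding bases of the full form (chr15:89568435-89569462 is its intron): 4 at the end of exon 1 and 126 at the start of exon 2. It took 86.5 and 92.2% of the Acr TPM in the 2 sperm libraries over the merged transcripts, and 78.0 and 81.3% over the transcripts of sperm alone. The full form held 30.9 and 6.00 TPM. Both forms were called higher in sperm than in oocyte, the short by 6.86 and the full by 3.90, where 45.8% of 21568 transcripts were called, and both pass the filter through sperm alone. The intron of the short form starts with GT and ends with AG, the usual ends of an intron. Each of its ends is an exon boundary in annotated Acr transcripts, but 0 of them join the 2. Since 130 leaves a remainder of 1 after division by 3, the reading frame shifts, and from the annotated start codon the short form runs for 35 codons before a stop, against 436 in the full form. The sequences around the junction show what is left out, in capitals, on the GRCm38 plus strand from the annotated Acr transcript.
Full form, start of the stretch: aggataacaccacgtGTGATGGTCCCTGTG
Full form, end of the stretch: CACGTCCCATAACAGccgcaggtaccacgc
Short form across the junction: aggataacaccacgtccgcaggtaccacgc

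Acrbp (chr6:125049689-125063267, plus strand) had a form with 5 exons and one with 10. The 5-exon form reads 241 bases on into intron 5, of which 13 complete its annotated reading frame of 948 bases, against 1620 bases in the 10-exon form. In sperm it held 53.2 and 12.9 TPM, or 87.5 and 88.9% of the gene, and the 10-exon form 6.06 and 1.20 TPM. Another form joins Ing4, the gene upstream, to Acrbp. It held 1.54 and 0.417 TPM in sperm. At 2-cell it held 100% of the Acrbp TPM in replicate 1 (0.306 TPM) and 58.0% in replicate 2 (5.08 TPM). Its share at 4-cell was 17.1 and 20.8%. In the 2-cell long reads it was the only Acrbp transcript. Acrbp shares 975 exon bases with Gm44597 on the same strand, so reads of these genes could not be told apart. The end of exon 5 is shown in lower case, with the bases that follow it in each form in capitals.
5-exon form: ccaaagcactggcagGTACAGGAAATTGTG
10-exon form: ccaaagcactggcagCCTCCAGCAGCTGCC

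Spaca1 (chr4:34024874-34050191, minus strand) had a 7-exon and an 8-exon form in the sperm long reads, and only the 8-exon form in the merged annotation, so the split was measured over the transcripts of sperm alone. The 7-exon form took 78.5 and 79.8% of the Spaca1 TPM there (26.4 and 315 TPM), and the 8-exon form 7.23 and 79.6 TPM. The shares were close in the 2 libraries, although the levels were not. The 7-exon form reads on into intron 7 for 82 coding bases in place of the 37 coding bases of exon 8, and both reading frames are annotated, with 915 and 870 bases. The end of exon 7 is in lower case here, with the next bases of each form in capitals.
7-exon form: gctgagctctatgagGTATAAAGATTCGAC
8-exon form: gctgagctctatgagGTGCGAACAAGACAA

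**Figure D4:**
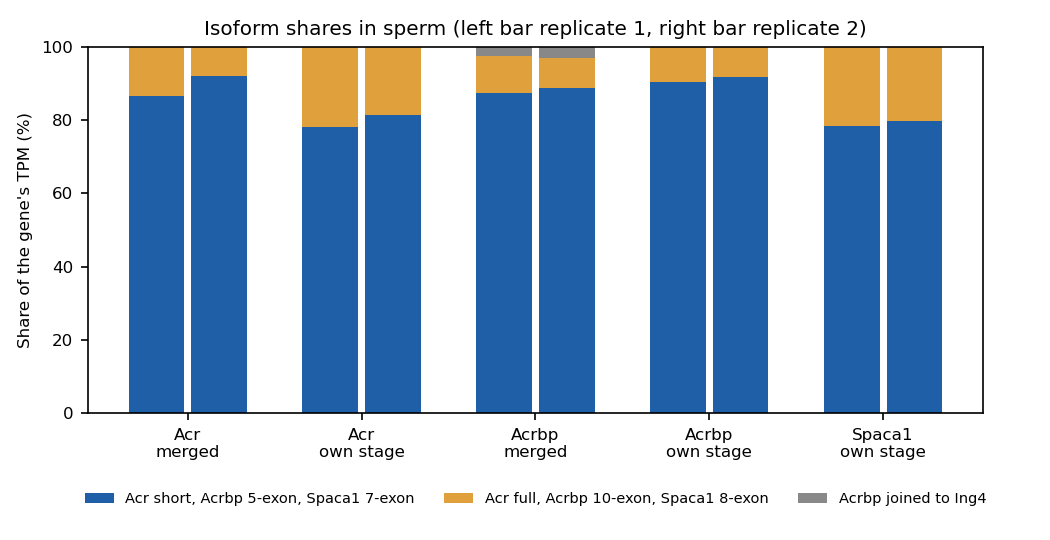
Share of each gene's TPM in sperm, in percent, taken by each form in replicate 1 (left bar) and replicate 2 (right bar), over the merged transcripts or over the long-read transcripts of sperm alone. In all 5 pairs of bars the blue form (Acr short, Acrbp 5-exon, Spaca1 7-exon) takes between 78.0 and 92.2%.

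The Plcz1 transcript measured in sperm had 14 exons and the introns of an annotated form that is classed as a target of nonsense-mediated decay. It differs from the annotated coding form in 1 intron, of 11096 bases in place of 11099, which leaves 3 bases more in the mature transcript. These bases read TAG and lie in frame, so that the reading frame from the annotated start codon ends after 53 codons, against 647 in the coding form. The coding form was not among the merged transcripts, so the TPM of Plcz1 cannot tell the 2 forms apart. Plcz1 also shares 107 exon bases with Capza3 on the opposite strand. The extra bases are in capitals in the measured form, on the minus strand.
Measured form: acatatttttaagTAGgaaaatgacagaca
Coding form: acatatttttaaggaaaatgacagaca

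Izumo1r (chr9:14885814-14903949, minus strand) had a full form of 5 exons, which matched an annotated intron chain, and a short form of 4. The full form held 90.9 and 90.8% of the Izumo1r TPM at 1-cell, 68.8 and 90.1% in oocyte. The short form held 2.67 and 3.49 TPM in oocyte and 11.7 and 1.16 at 1-cell, and at most 0.535 TPM in any other library. It starts 94 bases before exon 2 and lacks the first 384 bases of the last exon, of which 266 are coding, out of an annotated reading frame of 732. Both forms were called lower at 2-cell than at 1-cell. The full form fell by 3.34 ± 1.03 (SE, adjusted p = 0.0311) and the short form fell by 2.08 ± 0.66 (adjusted p = 0.0354). Of 20250 transcripts tested, 28.0% were called. No alternatives were run on transcripts, and the call of the whole gene in this step was lost under some of them, as given above. Where the last exon of the full form begins is shown, with the coding bases that the short form leaves out in capitals.
Full form: gggactggagtgaggAGAAGAAACACTGCC

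Cd9 (chr6:125460266-125494791, minus strand) had a main form with the annotated chain of 8 exons and a second form with another first exon, at chr6:125478179-125478314, 16259 bases downstream of exon 1. The second form lacks the 66 coding bases of exon 1, of an annotated reading frame of 678, and with them the annotated start codon. Its first exon overlaps by 124 bases the first exon of an annotated noncoding Cd9 transcript. In sperm the second form held 1.14 TPM in replicate 1 and 0.829 TPM in replicate 2. It was listed at 0 in the 4 oocyte and 1-cell libraries and held 3.00 and 4.61 TPM at 2-cell. From 1-cell to 2-cell this was a rise of 2.25 ± 0.50 (SE, adjusted p = 0.00655). It stayed between 4.67 and 7.34 TPM at 4-cell and 8-cell and was at 1.25 and 1.15 TPM at blastocyst, while its share of Cd9 went from 10.4 and 3.18% at 2-cell to 0.0673 and 0.327% at blastocyst. The main form was not called from 1-cell to 2-cell (1.54 ± 1.05, adjusted p = 0.296), and whether the 2 forms differed in that step was not tested. The first 30 coding bases of Cd9, with the start codon in capitals, are in the main form only.
First coding bases: ATGccggtcaaaggaggtagcaagtgcatc

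**Figure D5:**
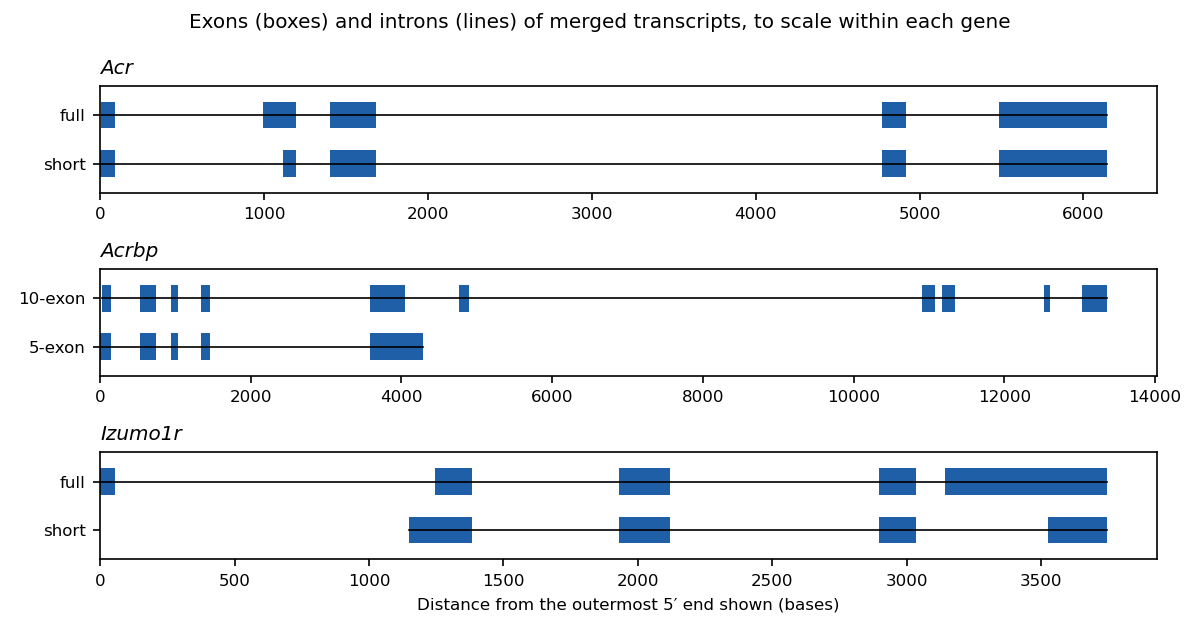
Exons (boxes) and introns (lines) of the 2 main forms of Acr, Acrbp and Izumo1r, drawn to scale within each gene as distance in bases from the outermost 5′ end shown. The short Acr form has a shorter second exon, the 5-exon Acrbp form ends in an extended last exon, and the short Izumo1r form starts just before exon 2 and has a shorter last exon.

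Astl (chr2:127338639-127357651, plus strand) was measured through 1 transcript with a single exon of 911 bases at the 3′ end of the last exon. The annotated gene has 9 exons and a reading frame of 1242 bases, of which this transcript covers 29. It was found in the oocyte pool. Its values are thus those of the 3′ end of Astl, and under the rule that a single exon must lie inside the annotated exons it was left out, because it runs 2 bases past the annotated end (909 of 911 bases inside). Zpbp (chr11:11279626-11462408, minus strand) had 1 form with the annotated chain of 8 exons.

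Genes of the same pathways were counted from 4 lists without the members. Of 13 other acrosome genes, 7 had a merged transcript and 6 were tested in sperm against oocyte. All 6 were called higher in sperm (36.9% of all genes), with a median difference of 4.05 beside 0.96 over all genes. However, 4 of them passed the filter through sperm alone. Spink2, an inhibitor of acrosin, stood at 1611 and 617 TPM in sperm and 1.42 and 0 in oocyte, a difference of 9.33 ± 0.77 (SE, adjusted p = 2.29e-07). Prss21, a serine protease of sperm, stood at 76.0 and 32.9 TPM and was listed at 0 in oocyte. Zpbp2, the paralog of Zpbp, stood at 27.8 and 63.3 TPM against 0.19 and 1.29, and was higher in replicate 2 as Zpbp was. In the embryo libraries the highest values were 71.2 TPM for Spink2, 0.196 for Prss21 and 1.76 for Zpbp2.

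Of 14 other annotated genes for the sperm surface and fusion, 8 had a merged transcript and were tested. Of these, 5 were called higher and 0 lower in sperm, with a median difference of 2.46, and 2 passed through sperm alone. Over all genes, 36.9% were called higher and 17.1% lower, with a median of 0.96. Clgn, a chaperone for sperm surface proteins in the testis, stood at 35.6 and 293 TPM in sperm and 0.258 and 0.63 in oocyte (6.18 ± 0.78, adjusted p = 1e-05). Llcfc1, needed for fusion, stood at 68.1 and 10.0 TPM and Adam3, a membrane protein of sperm, at 30.4 and 6.75 TPM, and both were listed at 0 in oocyte. The replicates split again, with Clgn higher in replicate 2, as Spaca1, and Llcfc1 and Adam3 higher in replicate 1, as Acr.

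All 4 other genes of the egg surface and zona were called, 1 higher and 3 lower in sperm, with a median difference of -3.68. Over all genes, 36.9% were called higher and 17.1% lower, with a median of 0.96. The zona genes were the lower ones: Zp1 was at 15.1 and 52.4 TPM in oocyte and 0.0572 and 0 in sperm, Zp3 at 51.7 and 102 against 2.53 and 6.29, and Zp2 at 26.0 and 11.2 against 0.35 and 0.924. Cd81, a tetraspanin related to CD9, was the higher one, with 185 and 739 TPM in sperm and 4.25 and 2.98 in oocyte (6.34 ± 0.84, adjusted p = 1.6e-05). It was higher in sperm replicate 2, unlike Cd9 and the leukocyte and epididymal markers. Also higher there were the sperm genes Spaca1 and Zpbp and the sum of the 7 blastocyst markers (170 and 739 TPM in sperm). The part of other cells in the sperm value of Cd81 was not tested. From oocyte to blastocyst, Zp1, Zp2 and Zp3 were called lower (17.7% of all genes) and Cd81 higher (35.7%), with a median difference of -4.36 (0.83 over all genes).

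Of 9 other genes of egg activation, 5 had a merged transcript. Of these, 0 were called higher and 3 lower in sperm than in oocyte, with a median difference of -2.18. Over all genes, 36.9% were called higher and 17.1% lower in that comparison, with a median of 0.96. Wee2, an oocyte kinase that holds and then releases meiotic arrest, stood at 182 and 125 TPM in oocyte and at most 0.047 in sperm (-7.20 ± 0.87, adjusted p = 6.72e-06). Fbxo43, which keeps the egg in metaphase II, stood at 88.4 and 215 TPM against 1.00 and 2.14 (-5.79 ± 0.83, adjusted p = 3.43e-05). Camk2g, a kinase activated by calcium in the egg, stood at 70.8 and 461 TPM against 43.7 and 34.9 (-2.18 ± 0.90, adjusted p = 0.0499). From oocyte to blastocyst, 4 of the 5 were called lower and 1 higher, with a median difference of -3.14, beside 17.7% lower and 35.7% higher and a median of 0.83 over all genes.

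The genes with the most similar levels were found by the root mean square difference of log2(TPM + 1) over the 14 libraries, among 11248 other genes. Near to Plcz1 were Mpeg1 (0.04, with 11.3 and 1.82 TPM in sperm) and Ccdc70 (0.04, with 13.8 and 1.77 TPM), both at or below 0.0497 TPM in the other libraries. Because Plcz1 was listed at 0 in all 12 libraries outside sperm, any gene near 0 there with like sperm values comes out this close. These distances cannot be set beside those of Izumo1r and Astl. Mpeg1 is known from macrophages. Nearest to Izumo1r were Tmem72 (0.38), Gja4 (0.54), a connexin, and Sgcd (0.57), each highest in 1-cell replicate 1, at 103, 59.7 and 119 TPM. Nearest to Astl were Tmem232 (0.63), Gm43574 (0.65) and Gm5779 (0.66), with 21.0 and 19.3, 45.4 and 11.3, and 14.3 and 38.9 TPM in oocyte. The points of such a comparison share their libraries, and the replicates of sperm weigh in it as much as the stages do.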

How the data were processed

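The authors aligned each stage's long reads to mm10 (GMAP), removed redundant transcripts and merged the stages. They deposited the exon coordinates and, for each short-read library, 2 sets of TPM values from salmon: over the merged transcripts and over those of its own stage only. The annotation used here was GENCODE vM21 on GRCm38, the assembly of mm10. Printed sequences and reading frames were taken from the bases of its transcripts and not from the reads. A base that differs in the strain of the males would therefore not show. The submitters' processing notes also name GSNAP, STAR and Cufflinks. Libraries were grouped by title. The file names number the 8-cell replicates in the opposite way.

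Gene TPM was tested with limma (version 3.58.1, R 4.3.3) as log2(TPM + 1), with an intensity trend in eBayes and the stage as the only term. Genes that reached 1 TPM in 2 or more libraries of the fit were kept, and p-values were adjusted by Benjamini-Hochberg over all of them in each comparison. Contrasts with sperm used 14 libraries and the others 12. A difference on this scale understates the change of low genes. TPM keeps no depth, so no interval for counting error can be given. Python 3.11.15 with pandas 2.3.3 was used for tables, and the fit was tested on simulated data.

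All 10 members are named, with up to 3 other genes per pathway list and direction (called in sperm against oocyte, largest difference, non-overlapping libraries) and the 3 nearest genes of Plcz1, Izumo1r and Astl, of which 1 is not reported here. The pathway lists were acrosome, sperm surface and fusion, egg surface and zona, and egg activation, and the marker lists were sperm, oocyte, cumulus and granulosa, epididymal epithelium, leukocytes, blastocyst and 2-cell embryo. The members and lists were chosen with earlier results of these data known. Of the 16 other names in the fusion list, 14 are gene symbols of this annotation.

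Alternatives were another pseudocount, other filters, quantile normalization, a fit on the 4 libraries compared, a replicate block, a spread weighted by stage, a stricter assignment of transcripts, TPM of the own stage, and each library left out in turn. Counting each transcript for 1 gene was chosen after seeing the data. Protein sequences were not used here.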

Additional observations from a re-analysis of the deposited data

How the results depend on the processing

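Of the 19 member differences called, 8 are those of Spaca1, Zpbp, Acr and Plcz1, which pass the filter through sperm alone and say nothing about stability. Of the other 11, 8 kept sign and call under every alternative that could test them, and 3 did not: the differences of Cd9 between sperm and oocyte, Astl between sperm and 1-cell and Izumo1r between 1-cell and 2-cell given above. Of the 242 values of these 11 under alternatives, 233 kept sign and call, 9 kept the sign but lost the call and 0 changed sign. The count of called members went from 1 to 2 after quantile normalization and to 0 with the spread weighted by stage from 1-cell to 2-cell, and from 0 to 2 in the fit on 4 libraries and with the spread weighted by stage from 4-cell to 8-cell. With each library left out in turn, in fits where the lone library of a stage is assumed to vary like the others, it ranged from 3 to 8 for sperm against oocyte, 3 to 7 for sperm against 1-cell, 0 to 2 from 1-cell to 2-cell, 0 to 2 from 2-cell to 4-cell and 3 to 4 for oocyte against blastocyst. The lowest counts of sperm come from leaving out a sperm library, when 4 members remain to be tested because the filter needs 2 libraries. From 1-cell to 2-cell the count was 0 without 1-cell replicate 1 and 2 without 2-cell replicate 2, and from 2-cell to 4-cell it was 2 without 2-cell replicate 2. Differences that were not called over all libraries changed sign for Cd9 against 1-cell (-0.32 without sperm replicate 1, -0.05 without 1-cell replicate 2), Izumo1r from oocyte to 1-cell (-0.45 to 2.80, lowest without 1-cell replicate 1), Astl from 1-cell to 2-cell (-1.66 to 0.25, highest without 2-cell replicate 1) and from 2-cell to 4-cell (-1.56 to 0.35, highest without 2-cell replicate 2), Acrbp from 2-cell to 4-cell (-1.41 to 1.49, and -1.41 and -0.08 without 2-cell and 4-cell replicate 1), and, from 8-cell to blastocyst, Cd9 (0.06 without 8-cell replicate 1, 0.99 without blastocyst replicate 2) and Izumo1r (-0.0574 to 0.0898, and -0.0411 and -0.0574 without 8-cell and blastocyst replicate 1). Within these ranges, Astl from 1-cell to 2-cell (-1.66, adjusted p = 0.0419) and Acrbp from 2-cell to 4-cell (1.49, adjusted p = 0.0398) were called without 2-cell replicate 2. The cause was not tested. Counts of all genes called moved by over 1.5 times from 4-cell to 8-cell (170, 91 with the block, 3577 in the fit on 4 libraries, 4075 with the spread weighted by stage, and 0 to 903 with 1 library left out), from 2-cell to 4-cell (325, 1064 after quantile normalization, 0 in the fit on 4 libraries, and 0 to 1783), from oocyte to 1-cell (28, 102 in the fit on 4 libraries, 0 with no filter, and 0 to 220), from 8-cell to blastocyst (312, 554 with the spread weighted by stage, and 25 to 824) and from 1-cell to 2-cell (3371, 1594 with the spread weighted by stage, and 1750 to 3995). The highest of each range came from leaving out a 2-cell library. TPM over the transcripts of the own stage moved the mean of Izumo1r at 1-cell from 70.6 to 46.6, which is within its SD of 82.0, and that of Cd9 at 4-cell from 431 to 392, which is not (SD 19.0). The strict assignment left Astl out.

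The values do not settle whether the replicate numbers pair the libraries. The replicate differences of 21 pairs of stages correlated from -0.55 to 0.48 over 11267 genes, with 8 of 21 over 0.1. With the replicate block, 8, 7, 1 and 3 members were called for sperm against oocyte, sperm against 1-cell, 1-cell to 2-cell and oocyte against blastocyst, and 0 in the other steps, the same counts as without it. The block moved the count of all genes called from 28 to 1 for oocyte to 1-cell and from 325 to 86 for 2-cell to 4-cell.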
